A study of Homo sapiens with 6 samples.

Results

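The genes described here make cholesterol and fatty acids, or sense and carry sterols, in the human neuroblastoma cell line SK-N-AS. They were taken from a list of 30 genes: 18 enzymes of sterol synthesis, 7 enzymes of fatty acid synthesis, and 5 genes of sterol sensing and transport. Each gene was read from the probe set that carried its symbol alone and had the highest mean over the 6 arrays. That gave 27 genes, of which 26 entered the test among 10459 genes in all. The other gene, MVD, which makes isopentenyl diphosphate, lay between 2.58 and 2.64 (log2 signal) on all 6 arrays, under the limit of log2 5 that was taken as background. CYP51A1 and FADS1 share their probe sets with a further symbol, and FDFT1 had no probe set of its own here, so these 3 were not analysed here.

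The series holds 3 cultures of 2 arrays each. Monolayer cells were untreated and grew attached. Sphere cells were untreated and grew as spheroids in medium without serum. iCSC cells were given 2.5 uM 5AdC, an inhibitor of DNA methylation (5-aza-2'-deoxycytidine), for 5 days as a monolayer and then grew as spheroids in medium without serum. The labels do not describe the medium of the monolayer, so the loss of attachment and the change of medium cannot be told apart. Nor do they state whether both arrays of a culture had separate flasks as their source, so each p-value reflects the scatter of 2 arrays, possibly a technical one. Values are log2 GCRMA signals, in which 1 unit is a doubling, and are given for each of the 2 arrays of a culture. A value after ± is limma's standard error (SE) of a log2 difference. Tests are limma's, adjusted over all 10459 genes by the Benjamini-Hochberg method, and calls were made where the adjusted p was under 0.05.

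Cholesterol is built from acetyl units by way of mevalonate, farnesyl diphosphate, squalene and lanosterol. When sterol in the endoplasmic reticulum is low, the escort protein SCAP carries the membrane-bound factors SREBP1 and SREBP2 (genes SREBF1 and SREBF2) to the Golgi. There they are cut, and their free ends switch on the genes of both pathways. INSIG1 holds SCAP back when sterol is plentiful. Serum lipoproteins are a usual source of cholesterol for cultured cells. The neural crest tumour cell studied here needs sterol and fatty acids for its membranes, as all growing cells do.

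SREBP binds a sterol regulatory element in promoters, often with NF-Y at a nearby CCAAT box. RefSeq promoter windows (GRCh38.p14, 250 bases before to 50 after a gene's start) were matched to 23 of the 26 tested genes. ACAT2, SQLE and FASN had no match. The full sterol regulatory element of 10 bases was found in 1 of the 23 windows, that of SREBF2, and in 0.154% of all 27305 windows of the table. The shorter form TCACNCCAC, which lies inside it, was in the same window and in 1.15% of all windows. Elements with other letters were not searched, so a window without a match may still hold one. CCAAT was in 16 of 23 windows (69.6%), against 35.7% of all. By list it was in 11 of 13 sterol enzyme windows, 3 of 5 sensing and transport windows and 2 of 5 fatty acid enzyme windows. The E-box CACGTG was in 4 of 23 windows, against 7.43% of all, and the GC box GGGCGG in 21 of 23, against 44.6% of all. Both strands were searched. The shares of all windows include genes that were not tested here. They are therefore no comparison with other genes that passed the filter. A match is a description of letters, and windows of other transcript starts were not searched. SREBF1 and SCAP, which fell in Sphere, and ACACA, which rose, held no CCAAT in their windows. The windows of 4 other genes that rose and 2 that fell in Sphere are shown, picked so that both kinds hold CCAAT boxes. They lie at chr22:41832855-41833154 on the plus strand for SREBF2, chr5:111512486-111512785 on the minus strand for STARD4, chr5:43313363-43313662 on the minus strand for HMGCS1, chr4:165327419-165327718 on the plus strand for MSMO1, chr11:65111622-65111921 on the plus strand for TM7SF2 and chrX:48521558-48521857 on the plus strand for EBP. They are printed in the direction of transcription, with the sterol element and each CCAAT, or ATTGG on the other strand, in capitals.
SREBF2: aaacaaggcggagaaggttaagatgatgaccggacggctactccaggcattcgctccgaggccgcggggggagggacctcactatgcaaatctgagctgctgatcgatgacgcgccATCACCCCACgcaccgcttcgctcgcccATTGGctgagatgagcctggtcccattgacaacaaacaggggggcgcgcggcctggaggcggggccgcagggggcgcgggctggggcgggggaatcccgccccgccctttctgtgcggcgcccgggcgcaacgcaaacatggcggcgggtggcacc
STARD4: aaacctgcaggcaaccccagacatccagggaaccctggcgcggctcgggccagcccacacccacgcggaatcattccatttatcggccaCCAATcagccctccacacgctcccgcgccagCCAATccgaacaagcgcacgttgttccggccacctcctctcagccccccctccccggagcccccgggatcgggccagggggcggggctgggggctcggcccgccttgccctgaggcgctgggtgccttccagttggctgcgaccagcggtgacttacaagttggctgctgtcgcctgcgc
HMGCS1: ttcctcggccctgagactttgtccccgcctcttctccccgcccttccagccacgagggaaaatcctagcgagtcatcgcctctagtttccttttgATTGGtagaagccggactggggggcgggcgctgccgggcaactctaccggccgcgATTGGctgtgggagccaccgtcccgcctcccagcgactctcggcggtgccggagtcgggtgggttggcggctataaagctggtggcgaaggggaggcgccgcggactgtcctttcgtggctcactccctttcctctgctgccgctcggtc
MSMO1: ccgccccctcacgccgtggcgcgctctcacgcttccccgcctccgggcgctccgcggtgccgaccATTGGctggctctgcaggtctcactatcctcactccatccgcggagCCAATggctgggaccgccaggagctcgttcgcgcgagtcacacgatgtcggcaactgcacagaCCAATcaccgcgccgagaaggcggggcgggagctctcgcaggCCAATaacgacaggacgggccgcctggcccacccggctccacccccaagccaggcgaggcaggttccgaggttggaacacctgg
TM7SF2: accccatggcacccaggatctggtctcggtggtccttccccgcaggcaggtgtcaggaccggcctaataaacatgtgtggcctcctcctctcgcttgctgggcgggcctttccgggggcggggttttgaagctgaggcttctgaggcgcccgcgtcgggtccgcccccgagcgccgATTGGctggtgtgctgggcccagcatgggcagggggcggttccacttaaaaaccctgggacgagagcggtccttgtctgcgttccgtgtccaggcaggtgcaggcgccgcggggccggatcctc
EBP: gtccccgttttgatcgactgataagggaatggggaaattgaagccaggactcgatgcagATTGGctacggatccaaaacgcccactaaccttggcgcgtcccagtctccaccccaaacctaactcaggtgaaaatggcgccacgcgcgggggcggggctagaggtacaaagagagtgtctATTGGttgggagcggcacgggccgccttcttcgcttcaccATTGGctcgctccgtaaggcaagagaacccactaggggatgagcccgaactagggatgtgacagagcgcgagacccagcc

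In SREBF2 the element ATCACCCCAC lay from base -134 to base -125 relative to the start, and an inverted CCAAT box from -106 to -102. STARD4 held CCAAT from -161 to -157 and from -130 to -126. HMGCS1 had 2 inverted boxes, MSMO1 had 4 boxes, TM7SF2 had 1 and EBP had 3.

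Among the genes of sterol sensing and transport, SREBF2 and STARD4 were called higher in both spheroid cultures. SCAP was called lower in both, and SREBF1 was called lower in Sphere only. Of the 5 genes, 2 rose and 2 fell in Sphere against Monolayer, where 59.0% of all genes were called (30% higher, 29.1% lower). In iCSC against Monolayer 3 rose and 1 fell, where 55.6% of all genes were called (29.0% higher, 26.6% lower). Most genes of the array were called in both comparisons, so a call alone says little of a gene, and sizes are given for each. The list median was -0.22 in Sphere and 0.98 in iCSC, against 0.01 and 0.02 over all genes (log2 change).

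SREBF2, the factor with a preference for sterol genes, stood at 6.83 and 6.89 on the Monolayer arrays, 8.01 and 7.75 on the Sphere arrays, and 8.53 and 8.25 on the iCSC arrays. The 3 cultures did not overlap. It was 1.02 ± 0.17 (log2, SE) higher in Sphere than in Monolayer, a 2.02-fold rise (limma, adjusted p = 0.00262), and 1.53 ± 0.17 higher in iCSC, 2.89-fold (adjusted p = 0.000530). These calls stood under all 18 alternatives. iCSC exceeded Sphere by 0.51 ± 0.17 and was not called (adjusted p = 0.0564, and 0.0474 without iCSC replicate 2). A second probe set of SREBF2 had means of 4.10 in Monolayer and 4.32 in Sphere, under the limit, and 5.08 in iCSC.

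SREBF1, whose products act more on fatty acid genes, went the other way. It was measured at 6.49 and 6.36 in Monolayer, at 5.29 and 4.93 in Sphere, with 1 of these arrays under log2 5, and at 6.02 and 5.58 in iCSC. The Sphere arrays lay lowest and no cultures overlapped. The change from Monolayer to Sphere was -1.31 ± 0.23 (log2, SE; limma, adjusted p = 0.00277), called under every alternative that tested it. The iCSC difference from Monolayer was -0.62 ± 0.23 and lay at the threshold (adjusted p = 0.0539). It was called under 8 of the 17 alternatives that tested it, among them renewed quantile normalization (0.0248), the replicate block (0.0317) and the fit without iCSC replicate 1 (0.0269). The difference of 0.69 ± 0.23 between iCSC and Sphere was likewise not called (adjusted p = 0.0526) and was called under 7 of 17, among them the replicate block (0.0310) and the fit without iCSC replicate 2 (0.0295).

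SCAP, the escort protein, was at 9.60 and 9.61 in Monolayer, 8.92 and 8.91 in Sphere, and 9.0 and 8.99 in iCSC. Monolayer stood clearly above both spheroid cultures. SCAP fell by 0.68 ± 0.10 in Sphere and by 0.61 ± 0.10 in iCSC on the log2 scale (limma, adjusted p = 0.00163 and 0.00315). The genes of chromosome 3, where SCAP lies, had a median change of -0.46 in Sphere and -0.39 in iCSC. With chromosome medians removed, an alternative chosen after the data were seen, the SCAP changes were -0.23 and -0.19 and were no longer called (adjusted p = 0.105 and 0.166).

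INSIG1, the retention protein and itself a target of SREBP, was at 9.93 and 10.30 in Monolayer, 9.61 and 10.19 in Sphere, and 11.44 and 10.75 in iCSC. The iCSC arrays were the highest, and Monolayer and Sphere overlapped. INSIG1 was 0.98 ± 0.29 (log2, SE) higher in iCSC than in Monolayer (limma, adjusted p = 0.0261) and 1.20 ± 0.29 higher than in Sphere (adjusted p = 0.0178). Both calls leaned on single arrays. The first was lost without Monolayer replicate 1 (adjusted p = 0.161), Monolayer replicate 2 (0.0658) or iCSC replicate 1 (0.112), and the second without Sphere replicate 1 (0.113) or iCSC replicate 1 (0.0650). Sphere differed from Monolayer by -0.22 ± 0.29 (adjusted p = 0.547). Of its other 2 probe sets, 1 was called higher in iCSC against both cultures (0.79 and 1.14, adjusted p = 0.0230 and 0.00899) and the other was not (0.62 and 0.77).

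STARD4, a soluble carrier that moves cholesterol between membranes, changed most of the 26 genes against Monolayer. Its arrays read 9.19 and 9.47 in Monolayer, 11.62 and 11.75 in Sphere, and 11.28 and 10.82 in iCSC. All 4 spheroid arrays stood above both Monolayer arrays. STARD4 rose by 2.36 ± 0.17 (log2, SE) in Sphere, 5.12-fold (limma, adjusted p = 6.35e-05), and by 1.72 ± 0.17 in iCSC, 3.29-fold (adjusted p = 0.000344), under every alternative. It was lower in iCSC than in Sphere by -0.64 ± 0.17 (adjusted p = 0.0286). That last call was lost without either Monolayer array (adjusted p = 0.0535 and 0.0536), without Sphere replicate 1 (0.0966) or 2 (0.146), without iCSC replicate 2 (0.0802) and with chromosome medians removed (0.218).

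**Figure D1:**
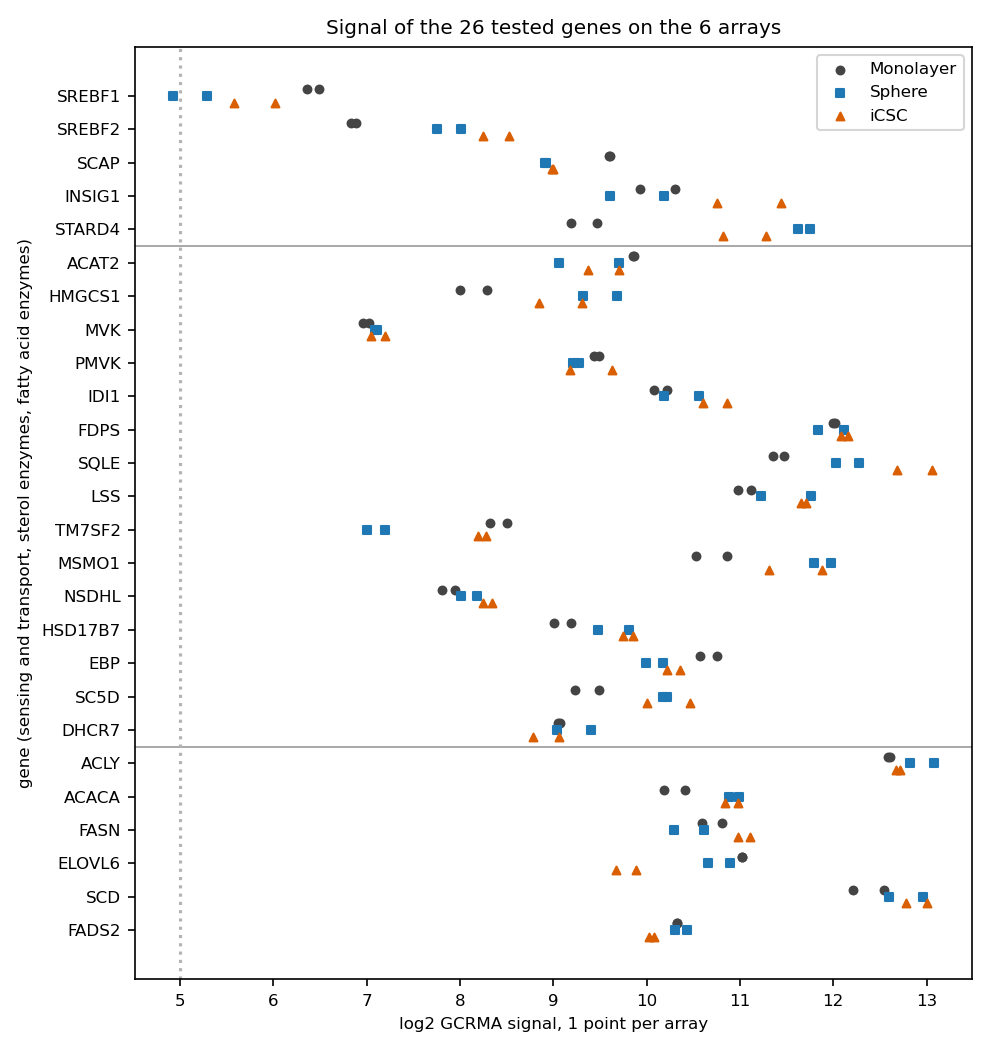
Log2 GCRMA signal of the 26 tested genes on each array (x axis), with 1 point per array and the genes in rows by role; the dotted line marks log2 5. STARD4, SREBF2, HMGCS1 and SQLE lie higher on all 4 spheroid arrays than in Monolayer, whereas EBP and SCAP lie lower.

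Among the sterol enzymes HMGCS1, SQLE, MSMO1, HSD17B7 and SC5D were called higher in both spheroid cultures and EBP lower in both. Of 15 tested enzymes, 5 were called higher in Sphere than in Monolayer, a share near the 30% of all genes, and 2 were called lower, a share below the 29.1% of all genes. In iCSC 8 were called higher and 1 lower, against 29.0% and 26.6% of all genes. The median change was 0.22 in Sphere and 0.42 in iCSC (log2), against 0.01 and 0.02 over all genes. Calls of at least 2-fold were made for 3 enzymes in Sphere and 1 in iCSC. The number of calls in Sphere was 4 without Monolayer replicate 1, and that in iCSC was 1 without Monolayer replicate 1, 5 without Monolayer replicate 2 and 5 without iCSC replicate 1, while 15 enzymes were tested each time. Without variance moderation, an ordinary linear model on 3 residual degrees of freedom, 1 enzyme was called higher and 2 lower in Sphere, and 1 in iCSC, higher. Both comparisons share the Monolayer arrays.

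The mevalonate steps changed little apart from HMGCS1, which makes the precursor of mevalonate. HMGCS1 was at 8.0 and 8.29 in Monolayer, 9.32 and 9.68 in Sphere, and 9.31 and 8.85 in iCSC. Both Monolayer arrays lay under all spheroid arrays. It rose by 1.35 ± 0.21 (log2, SE) in Sphere (limma, adjusted p = 0.00185), under every alternative, and by 0.93 ± 0.21 in iCSC (adjusted p = 0.00986). In iCSC the call ended without Monolayer replicate 1 (adjusted p = 0.0792) and with the mean of its probe sets (0.44, adjusted p = 0.196). The second probe set of HMGCS1 differed by 0.97 in Sphere (adjusted p = 0.0575) and by -0.05 in iCSC (0.915).

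IDI1, the isomerase that makes the reactive isoprene unit, was at 10.08 and 10.22 in Monolayer, 10.19 and 10.56 in Sphere, and 10.86 and 10.60 in iCSC. Only iCSC stood clear of Monolayer, by 0.57 ± 0.16 (log2, SE; limma, adjusted p = 0.0202). It was not called without Monolayer replicate 1 (adjusted p = 0.126), Monolayer replicate 2 (0.0688) or iCSC replicate 1 (0.0849) and with chromosome medians removed (0.0610). Its probe set carries the suffix x_at, for probes that may also bind other transcripts, and a probe set without it gave 0.29 (adjusted p = 0.277). The thiolase ACAT2, the mevalonate kinases MVK and PMVK and the prenyl synthase FDPS were called in neither comparison with Monolayer. Their changes ran from -0.49 (ACAT2) to 0.11 (MVK) in Sphere and from -0.33 to 0.13 in iCSC for the same pair. In 1 of the 2 other tested probe sets of MVK the gene was called higher in Sphere (1.30, adjusted p = 0.0401) and in iCSC (1.44, adjusted p = 0.0296), with a Monolayer mean of 4.54, under the limit. ACAT2 was called lower in Sphere without Sphere replicate 2 (adjusted p = 0.0207).

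SQLE, the first oxygen-using enzyme of the pathway and a rate-limiting step, climbed from culture to culture. It was at 11.35 and 11.47 in Monolayer, 12.03 and 12.28 in Sphere, and 13.06 and 12.68 in iCSC, with no overlap. The rise was 0.75 ± 0.15 (log2, SE) in Sphere (limma, adjusted p = 0.00482) and 1.46 ± 0.15 in iCSC, 2.75-fold (adjusted p = 0.000321). iCSC also exceeded Sphere, by 0.71 ± 0.15 (adjusted p = 0.0102, and 0.0734 without Sphere replicate 1). Of its other 3 probe sets, the 2 that stood above log2 5 in Monolayer were called higher in iCSC (1.79 and 1.83) and in Sphere (1.03 and 0.79). The last had a Monolayer mean of 4.59, under the limit.

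LSS, which closes squalene epoxide into lanosterol, was at 10.98 and 11.12 in Monolayer, 11.23 and 11.76 in Sphere, and 11.71 and 11.65 in iCSC. All spheroid arrays lay above Monolayer, and Sphere and iCSC overlapped. LSS was 0.63 ± 0.17 higher in iCSC (log2, SE; limma, adjusted p = 0.0196). It did not hold without Monolayer replicate 1 (adjusted p = 0.123), Monolayer replicate 2 (0.0716), iCSC replicate 1 (0.0724) or iCSC replicate 2 (0.0538). In Sphere it differed by 0.45 ± 0.17 (adjusted p = 0.0622, and 0.00630 without Sphere replicate 1).

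After lanosterol, MSMO1, HSD17B7 and SC5D rose in both spheroid cultures, the isomerase EBP fell in both, and the reductase TM7SF2 fell in Sphere. MSMO1, which oxidises a methyl group of the sterol ring, was at 10.53 and 10.86 in Monolayer, 11.79 and 11.98 in Sphere, and 11.88 and 11.31 in iCSC. The 4 spheroid arrays lay above Monolayer. The rise was 1.19 ± 0.21 (log2, SE) in Sphere (limma, adjusted p = 0.00285) and 0.90 ± 0.21 in iCSC (adjusted p = 0.0101, and 0.0828 without Monolayer replicate 1). SC5D, a desaturase of a late step, was at 9.23 and 9.49, 10.22 and 10.18, and 10.47 and 10.01 in the same order of cultures. It rose by 0.84 ± 0.17 in Sphere (adjusted p = 0.00625, and 0.0563 without Monolayer replicate 1) and by 0.88 ± 0.17 in iCSC (adjusted p = 0.00573, and 0.0529 without Monolayer replicate 1).

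HSD17B7, a ketoreductase that works beside MSMO1 and NSDHL, was at 9.01 and 9.19 in Monolayer, 9.48 and 9.81 in Sphere, and 9.86 and 9.75 in iCSC. It rose by 0.55 ± 0.15 (log2, SE) in Sphere (limma, adjusted p = 0.0185) and by 0.70 ± 0.15 in iCSC (adjusted p = 0.00738). In Sphere the call ended without Monolayer replicate 1 (adjusted p = 0.121), Monolayer replicate 2 (0.0506) or Sphere replicate 2 (0.0999), and the iCSC call without Monolayer replicate 1 (0.0631). Its only probe set carries the suffix x_at. NSDHL, which oxidises the same intermediates, was 0.42 ± 0.14 higher in iCSC (adjusted p = 0.0451). This call was lost without any 1 of the 6 arrays, with an adjusted p between 0.0649 and 0.206, and under 15 of 18 alternatives in all. In Sphere NSDHL differed by 0.22 ± 0.14 (adjusted p = 0.236).

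TM7SF2, a reductase that acts after lanosterol demethylation, was lowest in the untreated spheroids. It was at 8.32 and 8.50 in Monolayer, 7.20 and 7.0 in Sphere, and 8.19 and 8.28 in iCSC. The Sphere arrays lay more than 1 unit below the Monolayer arrays. The change in Sphere was -1.31 ± 0.15 (log2, SE; limma, adjusted p = 0.000474). iCSC differed from Monolayer by -0.18 ± 0.15 (adjusted p = 0.362) and exceeded Sphere by 1.13 ± 0.15 (adjusted p = 0.00176), which tests the difference between the spheroid cultures. Both calls held under every alternative that measured the gene. EBP, the sterol isomerase, was at 10.76 and 10.57 in Monolayer, 9.99 and 10.18 in Sphere, and 10.22 and 10.36 in iCSC. It changed by -0.58 ± 0.12 in Sphere (adjusted p = 0.00611, and 0.0565 without Monolayer replicate 1). In iCSC the change was -0.38 ± 0.12 (adjusted p = 0.0358), lost without Monolayer replicate 1 (0.204), Monolayer replicate 2 (0.0665) or iCSC replicate 1 (0.116). All 3 tested probe sets of EBP were called lower in Sphere, 1 of them with a Sphere mean of 4.31, under the limit. DHCR7, the last reductase on the way to cholesterol, lay between 8.78 and 9.40 on all arrays and was not called (0.16 ± 0.17 in Sphere and -0.14 ± 0.17 in iCSC).

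**Figure D2:**
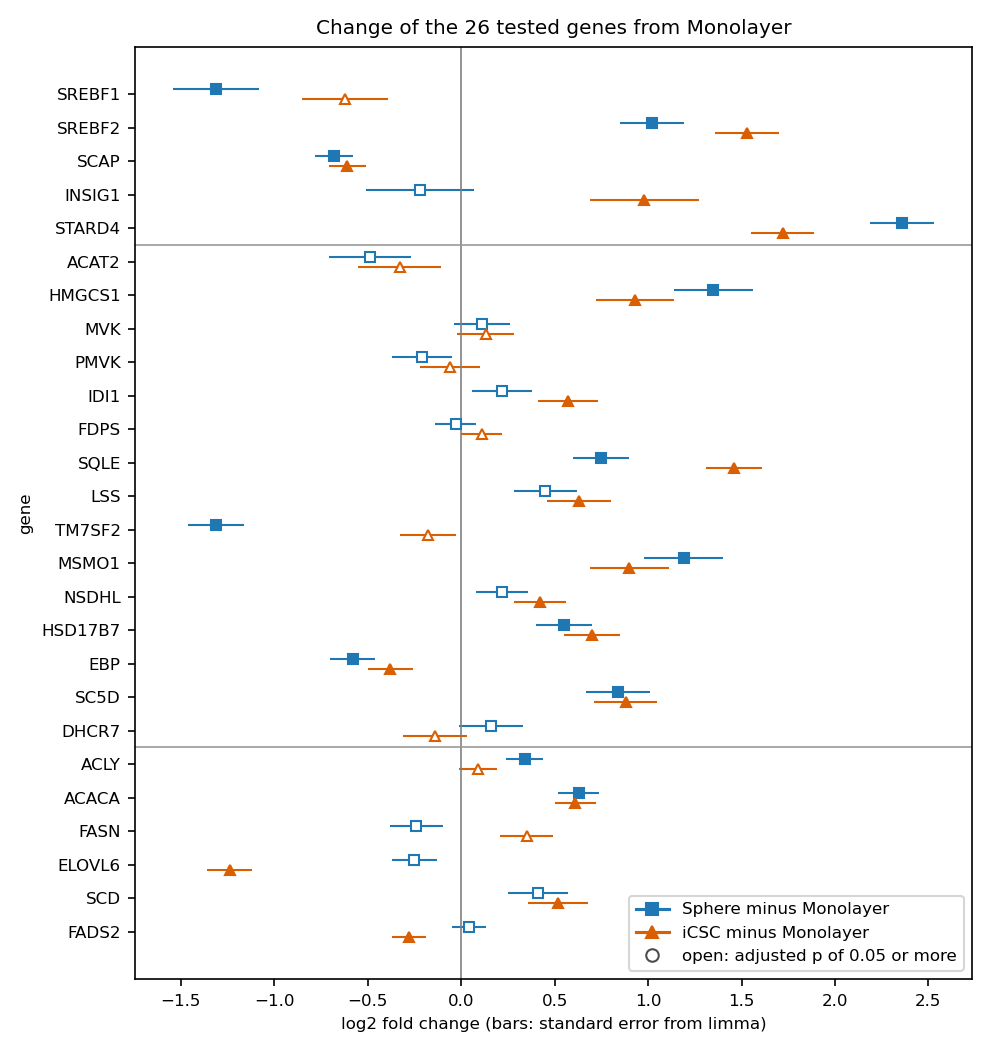
Log2 fold change from Monolayer (x axis) of the 26 tested genes in Sphere and in iCSC, with the standard error from limma as bars; filled points passed an adjusted p of 0.05. Both comparisons use the same Monolayer arrays. STARD4 lies farthest to the right in both cultures, TM7SF2 and SREBF1 at -1.31 in Sphere, and ELOVL6 at -1.24 in iCSC.

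Among the fatty acid enzymes ACACA was called higher in both spheroid cultures, ACLY higher in Sphere, SCD higher in iCSC, and ELOVL6 and FADS2 lower in iCSC. Of 6 tested enzymes, 2 were called higher and none lower in Sphere than in Monolayer, against 30% and 29.1% of all genes. In iCSC 2 were called higher and 2 lower, against 29.0% and 26.6% of all genes, so the higher calls were near the background in both cultures. At an unadjusted p under 0.05, 0 enzymes were lower in Sphere. The median change was 0.19 in Sphere and 0.22 in iCSC (log2), against 0.01 and 0.02 over all genes. The Sphere count was 1 without either Monolayer array and also without Sphere replicate 2, and the iCSC count of 4 was 2 without Monolayer replicate 1 or iCSC replicate 1.

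ACACA, which makes malonyl-CoA in the committed step, was at 10.19 and 10.41 in Monolayer, 10.88 and 10.99 in Sphere, and 10.98 and 10.84 in iCSC. Spheroid arrays of both kinds lay above Monolayer. It rose by 0.63 ± 0.11 (log2, SE) in Sphere and by 0.61 ± 0.11 in iCSC (limma, adjusted p = 0.00315 and 0.00418). With the mean of its 2 probe sets the calls were lost (0.24 and 0.20, adjusted p = 0.108 and 0.189), since its weaker probe set differed by -0.14 and -0.22.

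ACLY, which supplies cytosolic acetyl-CoA to both pathways, was at 12.59 and 12.61 in Monolayer, 12.82 and 13.08 in Sphere, and 12.72 and 12.67 in iCSC. It rose by 0.34 ± 0.10 (log2, SE) in Sphere (limma, adjusted p = 0.0210), a call lost without Sphere replicate 2 (0.0788) and without Monolayer replicate 1 or 2 (0.112 and 0.0929). In iCSC it differed by 0.09 ± 0.10 (adjusted p = 0.456). FASN, the synthase that builds palmitate, was at 10.59 and 10.81 in Monolayer, 10.29 and 10.62 in Sphere, and 10.98 and 11.11 in iCSC. It was called in neither spheroid culture against Monolayer (-0.24 ± 0.14 and 0.35 ± 0.14, adjusted p = 0.177 and 0.0747). iCSC exceeded Sphere by 0.59 ± 0.14 (adjusted p = 0.0171), lost without Sphere replicate 1 (0.0881) or iCSC replicate 2 (0.0639) and with chromosome medians removed (0.0988).

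ELOVL6, which lengthens palmitate toward stearate, showed the largest change of this list. It was at 11.02 on both Monolayer arrays, 10.66 and 10.89 in Sphere, and 9.67 and 9.89 in iCSC. The iCSC arrays lay lowest. ELOVL6 fell in iCSC by 1.24 ± 0.12 on the log2 scale against Monolayer (limma, adjusted p = 0.000270) and by 1.0 ± 0.12 against Sphere (adjusted p = 0.00110), under every alternative. Sphere differed from Monolayer by -0.25 ± 0.12 (adjusted p = 0.121). Its 3 probe sets disagreed on Monolayer as the reference: the set that differed was called higher in Sphere (1.18, adjusted p = 0.000414) and was not called in iCSC (0.33, adjusted p = 0.0703). All 3 were called lower in iCSC than in Sphere (-1.0, -0.87 and -0.85).

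SCD, the stearoyl-CoA desaturase, was at 12.21 and 12.54 in Monolayer, 12.60 and 12.96 in Sphere, and 13.01 and 12.78 in iCSC. It was 0.52 ± 0.16 (log2, SE) higher in iCSC (limma, adjusted p = 0.0339), lost without Monolayer replicate 1 (0.204) or iCSC replicate 1 (0.145) and with chromosome medians removed (0.108). In Sphere it differed by 0.41 ± 0.16 (adjusted p = 0.0720). A second probe set of SCD differed by -0.38 in Sphere and by 0.09 in iCSC, with no call against Monolayer. FADS2, a desaturase of polyunsaturated fatty acids, was at 10.33 on both Monolayer arrays, 10.31 and 10.43 in Sphere, and 10.03 and 10.08 in iCSC. It changed by -0.28 ± 0.09 in iCSC against Monolayer (adjusted p = 0.0432) and by -0.32 ± 0.09 against Sphere (adjusted p = 0.0366). The first call was lost without any 1 of the 6 arrays (adjusted p from 0.0531 to 0.157), and the second without any array except iCSC replicate 2 (0.0674 to 0.156). With chromosome medians removed the FADS2 changes were -0.12 and -0.09.

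**Figure D3:**
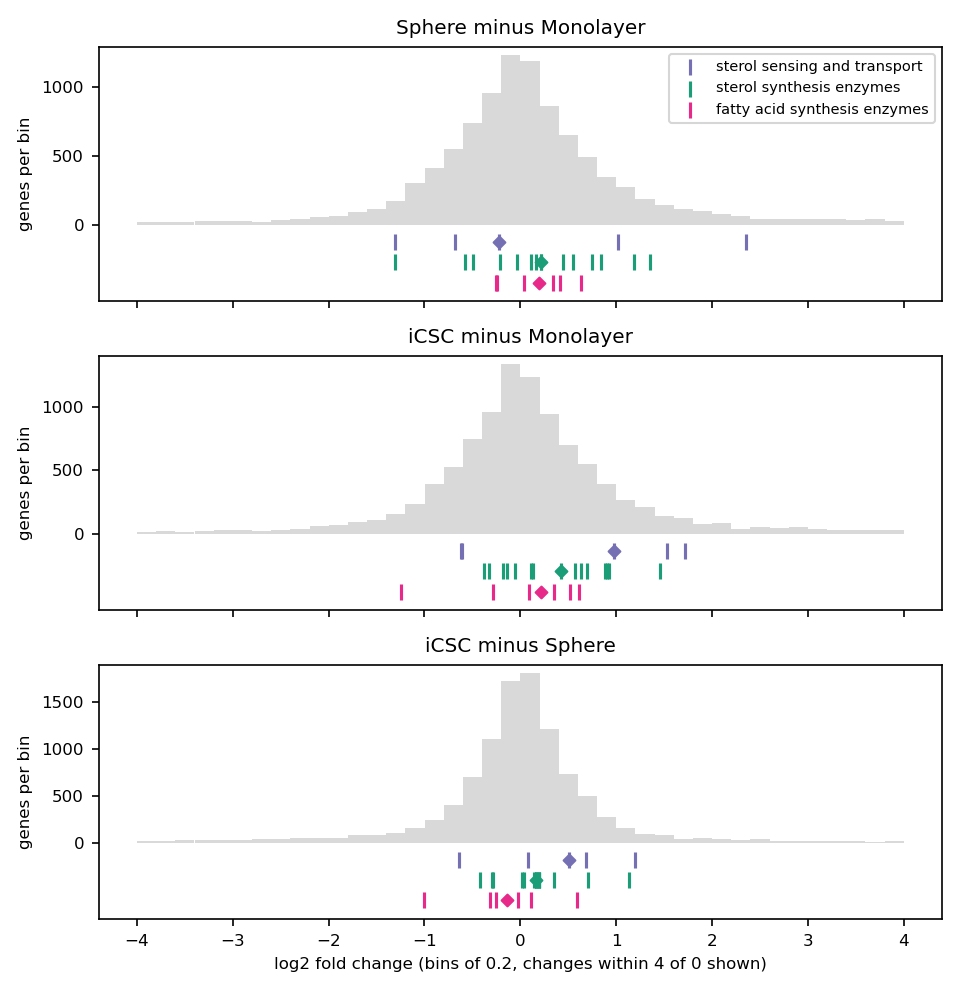
Histograms of the log2 fold change of all tested genes (grey, bins of 0.2, y axis in genes per bin) for the 3 comparisons, with each listed gene as a tick below and the median of each list as a diamond. Only changes within 4 of 0 are drawn. The ticks run from -1.31 to 2.36 in Sphere minus Monolayer, and the sterol enzyme medians stand at 0.22, 0.42 and 0.16.

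The spheroid cultures differed from each other in few of these genes. In iCSC against Sphere 38.5% of all genes were called (19.3% higher, 19.2% lower). Of the 26 genes 4 were called higher (SQLE, TM7SF2, INSIG1 and FASN) and 3 lower (STARD4, ELOVL6 and FADS2). Only TM7SF2 and ELOVL6 kept their call under every alternative that measured them. By list, 2 of 15 sterol enzymes, 2 of 5 sensing and transport genes and 3 of 6 fatty acid enzymes were called. The sterol enzyme count was 1 without Sphere replicate 1 and 4 without iCSC replicate 1, the fatty acid count was 2 without any 1 array, and the sensing and transport count ranged from 0 to 3 when single arrays were left out: 0 with Sphere replicate 1 removed, 3 with iCSC replicate 2 removed, and 1 in the other cases. The count over all genes fell from 4022 to 2574 without Sphere replicate 1. The median change over the 26 genes was 0.15 (log2), against 0.01 over all genes.

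Several genes had further probe sets, which read other stretches of the transcript. The 26 genes had 49 tested probe sets, and 14 of the genes had more than 1. None of the 14 had probe sets called in opposite directions in any of the 3 comparisons. All probe sets of a gene had the same outcome for 6 of the 14 in Sphere against Monolayer, 5 in iCSC against Monolayer and 10 in iCSC against Sphere.

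**Figure D4:**
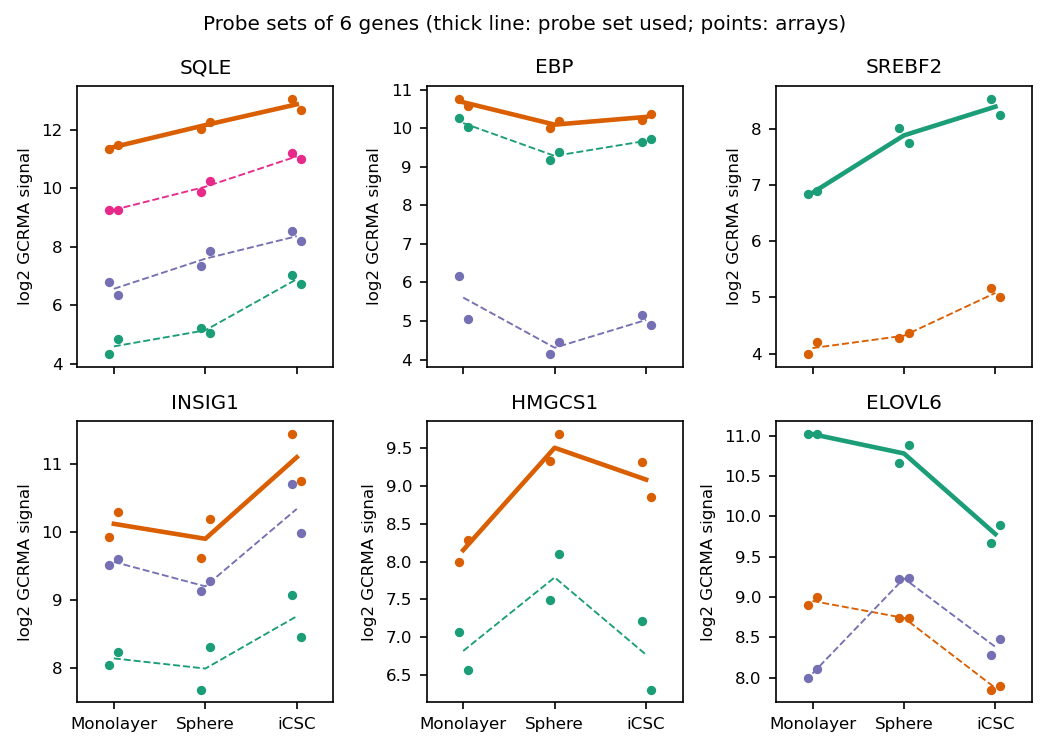
Log2 GCRMA signal (y axis) of each tested probe set of 6 genes in the 3 cultures (x axis); points are arrays, lines join culture means, and the thick line is the probe set used. The means of the 4 SQLE probe sets rise together. Of these, 1 had a Monolayer mean of 4.59, under log2 5, and was not called in Sphere. The 3 of EBP are lowest in Sphere, 1 of them at a mean of 4.31, under log2 5. The ELOVL6 probe sets part in Sphere, where 1 of 3 rises by 1.18.

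Genes around the pathway were read from lists chosen for their function. Of the enzymes beside the 18 sterol enzymes, 3 were tested, and 2 were called lower in each spheroid culture, though not the same pair. ACAT1 was called lower in both. LBR was called lower in Sphere only. In iCSC LBR differed from Monolayer by 0.19 (log2; limma, adjusted p = 0.311), and the remaining gene was called lower. For this list and the related lists that follow, the shares over all genes were 30% higher and 29.1% lower in Sphere. They were 29.0% and 26.6% in iCSC. ACAT1, the mitochondrial thiolase of ketone and isoleucine breakdown, was at 11.31 and 11.24 in Monolayer, 9.14 and 9.21 in Sphere, and 9.47 and 9.87 in iCSC. It fell in Sphere and iCSC by 2.10 ± 0.15 and 1.60 ± 0.15 on the log2 scale (limma, adjusted p = 4.49e-05 and 0.000204). LBR, a lamin receptor that is also a sterol reductase like TM7SF2, was at 12.61 and 12.62 in Monolayer, 12.07 and 12.29 in Sphere, and 13.01 and 12.60 in iCSC. LBR differed from Monolayer by -0.43 ± 0.15 in Sphere (adjusted p = 0.0397), a call lost under 8 of 18 alternatives, with an adjusted p of 0.153 and 0.15 without Monolayer replicate 1 or 2, and 0.207 and 0.0626 without Sphere replicate 1 or 2. iCSC exceeded Sphere by 0.62 ± 0.15 (adjusted p = 0.0165, and 0.106 without Sphere replicate 1).

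Of 8 tested genes of SREBP processing and of sterol-regulated protein degradation, 1 rose and 4 fell in Sphere, against 30% and 29.1% of all genes. In iCSC 3 rose and 4 fell, against 29.0% and 26.6%. ERLIN1 and ERLIN2, which form a complex that holds cholesterol and restrains SREBP, changed by -1.67 ± 0.11 and -1.13 ± 0.14 (log2, SE) in Sphere (limma, adjusted p = 4.11e-05 and 0.000609). In iCSC ERLIN1 changed by -0.97 ± 0.11 (adjusted p = 0.000599), and ERLIN2 differed by -0.11 ± 0.14 (adjusted p = 0.539). MBTPS1, the protease that makes the first cut in SREBP, changed by -1.07 ± 0.16 in Sphere (adjusted p = 0.00166). MARCHF6, a ubiquitin ligase that degrades SQLE, rose by 0.73 ± 0.10 in Sphere (adjusted p = 0.00109). Both were called the same way in iCSC. There MBTPS1 changed by -0.54 (adjusted p = 0.0298), a call lost under 6 of 18 alternatives, and MARCHF6 by 0.45 (adjusted p = 0.00948), lost under 3 of 18.

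Of 7 tested genes of cholesterol uptake and lysosomal release, none rose (0 also at an unadjusted p under 0.05 by limma) and 3 fell in Sphere, against 30% and 29.1% of all genes. In iCSC 2 rose and 2 fell, at the background of 29.0% and 26.6%. SCARB1, a receptor for high-density lipoprotein, was at 10.57 and 10.38 in Monolayer, 9.29 and 9.49 in Sphere, and 10.90 and 10.81 in iCSC. It changed by -1.08 ± 0.12 (log2, SE) in Sphere (limma, adjusted p = 0.000378) and exceeded the Sphere level in iCSC by 1.47 ± 0.12 (adjusted p = 0.000197). NPC2, which hands cholesterol out of the lysosome, changed by -1.14 ± 0.10 in iCSC against Monolayer (adjusted p = 0.000216). TMEM97, a binding partner of the lysosomal exporter NPC1, changed by -0.65 ± 0.10 in Sphere (adjusted p = 0.00188). Of 4 tested genes of the LXR group, which answers high sterol, 2 rose and 1 fell in each spheroid culture. The genes that rose were not all the same. The LXR factor NR1H3 rose in Sphere by 2.77 (adjusted p = 0.00189), and by 1.18 at the lowest under the alternatives. In iCSC NR1H3 was not called (0.91, adjusted p = 0.122), and another gene was called higher. MYLIP, a ligase that degrades lipoprotein receptors, changed by -2.81 ± 0.42 in Sphere and -2.15 ± 0.42 in iCSC (adjusted p = 0.00152 and 0.00553). The lipid carrier APOE rose by 1.97 ± 0.29 and 1.70 ± 0.29 in the same order (adjusted p = 0.00136 and 0.00297). ABCA1 and ABCG1, the sterol exporters that define this response, were under the limit on all 6 arrays and were not tested.

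Of 10 tested genes of triglyceride synthesis and lipid droplets, 4 rose and 4 fell in Sphere, where 59.0% of all genes were called. In iCSC 2 rose and 1 fell, below the background of 55.6%. PLIN2, the coat protein of lipid droplets, was at 1.95 and 1.85 in Monolayer, 8.48 and 8.72 in Sphere, and 5.98 and 5.90 in iCSC. Monolayer lay under the limit, so PLIN2 was at least 12.1-fold higher in Sphere and at least 1.92-fold higher in iCSC (limma, adjusted p = 8.64e-07 and 8.28e-06). These bounds set each array under log2 5 to 5, and the filter favoured a rise of such a gene. MGLL, which breaks down monoglycerides, was at least 2.07-fold higher in Sphere than in Monolayer, with 6.05 on both Sphere arrays. Monolayer lay under the limit, and iCSC differed from it by 0.08 (log2). MGLL thus passed the filter through its Sphere arrays alone, which favoured its call, so the call is no support for a rise. AGPAT2, an acyltransferase of triglyceride synthesis, was at 7.81 and 7.82 in Monolayer, 4.88 and 4.68 in Sphere, and 7.79 and 7.90 in iCSC. It was at least 7.04-fold lower in Sphere (adjusted p = 1.32e-05).

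Of 16 tested further fatty acid enzymes and activators, 5 rose and 4 fell in Sphere, near the 59.0% called over all genes. In iCSC 6 rose and 5 fell, where 55.6% were called. MLXIP, a glucose-sensing factor that acts on lipid genes, rose by 1.65 ± 0.12 (log2, SE) in Sphere and by 1.57 ± 0.12 in iCSC (limma, adjusted p = 5.84e-05 and 9.65e-05). FADS3, a relative of FADS2, changed by -1.06 ± 0.17 and -1.63 ± 0.17 (adjusted p = 0.00189 and 0.000352). ACSL1, which activates fatty acids with coenzyme A, rose by 1.55 in Sphere (adjusted p = 0.000336). In iCSC ACSL1 rose by 0.57 (adjusted p = 0.0253), a call lost under 6 of 18 alternatives. Of 14 tested genes of fatty acid oxidation, 2 rose and 7 fell in Sphere, against 30% and 29.1% of all genes. In iCSC 4 rose and 3 fell, near the background of 29.0% and 26.6%. The carnitine carrier SLC25A20 fell in both (-1.03 and -1.0, adjusted p = 0.00241 and 0.00312), and DECR1, an auxiliary reductase, changed by -0.67 ± 0.12 and -2.15 ± 0.12 (adjusted p = 0.00331 and 2.37e-05). ACADVL, the dehydrogenase of very long chains, changed by -1.11 in Sphere (adjusted p = 0.00373), and CPT1C, a brain form of the carnitine transferase, by -1.0 (adjusted p = 0.00116). In iCSC CPT1C changed by -0.69 (adjusted p = 0.00671), and ACADVL was not called (0.12, adjusted p = 0.641). Of 8 tested isoprenoid branch genes, 1 rose and 3 fell in each of the 2 comparisons.

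The cultures also differed in markers of cell state, and the part of these in the lipid genes was not tested. Of 10 measured sympathoadrenal neuroblast markers, 2 (GATA3 and ISL1) stood above log2 5 on both Monolayer arrays, and 9 did in Sphere and in iCSC. DBH was under the limit on all 6 arrays. The summed signal on the linear scale was 905 to 1060 in Monolayer, 39780 to 46806 in Sphere and 11452 to 14116 in iCSC. The neuroblast marker ISL1 changed by -1.14 (log2) in iCSC, where the other tested ones were higher or not called. All 8 mesenchymal neuroblastoma markers stood above the limit in Monolayer, 4 in Sphere and 5 in iCSC. Their sums were 44379 to 45589, 19567 to 24042 and 37443 to 41070, most of each from VIM. PRRX1 rose by 4.42 in Sphere and 2.75 in iCSC, and NOTCH2 by 1.91 in iCSC, whereas the rest were lower or not called. Of 5 fibroblast markers 4, 5 and 4 stood above the limit, with sums of 2531 to 2663, 12640 to 13731 and 3890 to 4413. All 7 hepatocyte and adipocyte markers were under the limit on every array. Of 6 leukocyte markers, all but PTPRC were under it everywhere, and PTPRC was at 11.74 in Monolayer, 12.47 in Sphere and 2.86 in iCSC. In bulk RNA, fewer cells of a type and less RNA per cell cannot be told apart. For ACTB, the 3' control probe set exceeded the 5' one, a gap that grows as RNA degrades, by 1.40 to 1.47 in iCSC and by 1.16 to 1.25 (log2) on the other 4 arrays.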

How the data were processed

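RNA of SK-N-AS cells in 3 kinds of culture was measured on 6 Affymetrix arrays. The deposited values are log2 signals; per the submitters' processing notes the authors used GCRMA and Partek, with versions and roles not given in the sources used here. No scanner files were used, so background correction and normalization are the authors'. Of 54675 probe sets, 62 were controls, 41091 carried 1 symbol in the platform annotation, 1801 several and 11721 none; 41037 of the single symbols were matched by Entrez ID to current names. Each gene was read from its probe set with the highest mean, and genes with a log2 of at least 5 on at least 2 arrays were tested.

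Tests used limma 3.58.1 in R 4.3.3 (lmFit, eBayes with a mean-variance trend; 1 mean per culture, 3 residual degrees of freedom), with Benjamini-Hochberg adjustment over all 10459 genes. The scripts were tested on simulated data. Figures used matplotlib 3.10.9 in Python 3.11.15. The members and lists were chosen with earlier results of these data known. All listed genes are named; of related lists, a gene could be named, and not all were, if it was called without overlap between cultures, up to 4 per list and comparison by size, as could any of the other sterol enzymes. Alternatives changed the filter, floor, normalization, probe set rule, variance model, arrays used and replicate block; removal of chromosome medians was added after seeing the data. The number of arrays limits the precision. Between arrays of a culture Pearson's r over genes was 0.984 to 0.996, and between cultures 0.729 to 0.859.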

Additional observations from a re-analysis of the deposited data

How the results depend on the processing

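None of the 26 genes changed the sign of a called difference under the 18 alternatives. Of the called genes, 5 of 13 kept their call under every alternative in Sphere against Monolayer, 4 of 17 in iCSC against Monolayer and 2 of 7 in iCSC against Sphere. SCARB1, a related gene, turned from 0.39 to -0.15 in iCSC against Monolayer with chromosome medians removed. The cause of these shifts was not tested, except that fewer genes enter without x_at and s_at probe sets.

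In Sphere against Monolayer, the 7 sterol enzyme calls became 4 without x_at and s_at probe sets and 3 without variance moderation, and ranged from 4 to 8 with 1 array left out. The 2 fatty acid calls became 1 with the mean of probe sets, without x_at and s_at probe sets, without a variance trend and without moderation (1 to 2 with 1 array left out). In iCSC against Monolayer, the 9 sterol calls became 5 without x_at and s_at probe sets and 1 without moderation (1 to 8 with 1 array left out). The 4 fatty acid calls became 2 without the filter, with the mean of probe sets, without x_at and s_at probe sets, without a trend and with chromosome medians removed (2 to 3 with 1 array left out).

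In iCSC against Sphere, the 4022 calls over all genes became 2281 without moderation (2574 to 3883 with 1 array left out). The 2 sterol calls became 1 without x_at and s_at probe sets and 1 without moderation (1 to 4), and the 3 fatty acid calls became 1 without x_at and s_at probe sets (2 throughout with 1 array left out). The 2 sensing and transport calls became 0 without the filter, 4 with renewed quantile normalization, the mean of probe sets or no trend, and 1 without moderation, with only the 4 arrays compared or with chromosome medians removed (0 to 3).

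Deviations of same-numbered arrays correlated over 10459 genes at r = 0.019 for Monolayer and Sphere, -0.053 for Monolayer and iCSC and 0.173 for Sphere and iCSC. Since not every pair was clearly positive, the numbers were not taken to pair the samples. With the replicate block, 6219, 5891 and 4106 genes were called, against 6176, 5812 and 4022. The sterol enzyme calls were then 8, 8 and 2. With 2 arrays a culture, small differences could not be resolved, and signals under log2 5 give only bounds.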

Other observations

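Most of the 26 genes differed between the 2 arrays of a culture in 1 direction, the same in Monolayer and Sphere and the opposite in iCSC. Not every list did so. The sensing and transport genes were split in Sphere (3 higher on replicate 1 and 2 lower). The fatty acid enzymes were split in iCSC (3 and 3). In Monolayer 20 of 26 were lower on replicate 1 than on replicate 2 (76.9%, against 39.3% of all 10459 tested genes). In Sphere 19 of 26 were lower on replicate 1 (73.1%, against 46.1%). In iCSC 19 of 26 were higher on replicate 1 (73.1%, against 48.8%). The median differences, replicate 1 minus replicate 2, were -0.10, -0.21 and 0.13 (log2), against 0.04, 0.02 and -0.01 over all tested genes. The genes share their arrays, and no test was made of these counts.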
